A study of Homo sapiens with 30 samples.

Results

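The genes described here encode the subunits of the hypoxia-inducible factors and the proteins that control them: the alpha subunits HIF1A and EPAS1, the beta subunits ARNT and ARNT2, the von Hippel-Lindau protein VHL, the prolyl hydroxylases EGLN1, EGLN2 and EGLN3, the asparaginyl hydroxylase HIF1AN and the coactivator competitor CITED2. They were chosen by name, and each was followed through the brightest probe set that the platform annotation gives to that gene alone. This gave 9 of the 10 listed genes, out of 12690 genes with such a probe set. EPAS1 was not analysed here because its probe set in the annotation also carries the name of another gene, MCL1.

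A hypoxia-inducible factor is a pair of an oxygen-labile alpha subunit and a stable beta subunit. In oxygenated cells the prolyl hydroxylases mark the alpha subunit, VHL recognises the mark and directs the protein to the proteasome, and HIF1AN blocks recruitment of the coactivators CBP and p300. Cells without VHL, as in many clear cell renal carcinomas, keep the alpha subunit in oxygen, so much of this control acts on protein, which expression arrays do not measure.

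Expression was measured on 30 Affymetrix arrays, 1 per RNA sample, in 3 human carcinoma lines in monolayer culture. RCC4 renal carcinoma cells took 20 arrays, 10 labelled vhl null and 10 of cells with wild-type vhl put back, called VHL-null and VHL-restored here by those labels. Each genotype was sampled at 0, 1, 2, 4, 6 and 18 h of hypoxia (oxygen under 0.01%) and after 18 h of hypoxia followed by 1 or 4 h of reoxygenation, with 2 independent replicates at 0 h and 18 h and 1 array at every other state. H1299 non-small cell lung cancer cells took 4 arrays, of cells with p53 reintroduced and of p53-null cells at 24 h and 0 h, and HCT116 colon carcinoma cells took 6, of p53 wild-type and p53-null cells at 0, 12 and 24 h. The labels do not say how VHL or p53 was put back or whether a line is a single clone. Genotypes were compared only within a line, while the comparison between lines pooled both genotypes of each. Whether the genotypes of a line differ in other ways is not stated.

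By whether 5 control entries held values, the arrays formed 2 sets, with 18 arrays lacking them (set 1) and 12 holding them (set 2). RCC4 had 8 arrays in set 1, which held 2 h, 6 h and replicate 1 of 0 h and 18 h, and 12 in set 2, which held 1 h, 4 h, both reoxygenation times and replicate 2 of 0 h and 18 h. All H1299 and HCT116 arrays were in set 1. The array medians spanned 0.90 on the log2 scale, so differences were tested after centring each array on its median. Gene medians of the RCC4 arrays were 7.30 to 7.36 in set 1 and 7.56 to 8.05 in set 2. Intensities are given as deposited, so a gap between arrays of different sets also holds this offset. PAX8, a renal lineage factor, ran from 272 to 564 on the RCC4 arrays, against 105 to 136 for H1299 and 126 to 155 for HCT116. Of 4 measured renal markers, PAX8 among them, 1 or 2 were above the array median on each RCC4 array, and 0 or 1 in the other lines. Of 7 measured colon markers KRT20 and GPA33 were null on all 6 HCT116 arrays, and VIL1 was listed on 1 of them, at 3. CDX1 was listed on all 6 at 27 to 44, against 1 of 20 RCC4 arrays and 18 to 27 in H1299. CDX2 was listed in every line, at 147 to 252 in HCT116. The 7 colon markers summed to 393 to 500 in HCT116, 394 to 446 in H1299 and 418 to 722 in RCC4, so as a set they did not mark HCT116. The lung factor NKX2-1 did not mark H1299: it was at 43 to 58 there, 28 to 98 in RCC4 and 44 to 71 in HCT116. A lower array signal from a culture cannot tell fewer cells that make a transcript from less transcript per cell.

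Of the 9 genes, HIF1A, ARNT, EGLN2 and CITED2 were bright enough to be among the 7614 genes tested, the upper 60% by mean value, and were listed on all 30 arrays. HIF1AN was also listed on all 30 arrays but fell just below the filter, with a mean log2 value of 6.70, where the genes on either side of the filter were at 6.80. VHL was null on 10 arrays, ARNT2 on 12, EGLN3 on 20 and EGLN1 on 22. A null entry has no stated meaning and was taken as 0, so the tests on these 5 dim genes come from a fit without the filter and are read beside their intensities.

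By VHL genotype 2 of the 4 tested genes passed, both lower in cells labelled VHL-null: HIF1A, the oxygen-regulated alpha subunit, by 2.40-fold, and CITED2, a transcript that HIF induces and whose protein competes with HIF for p300 and CBP, by 1.87-fold. Of all tested genes, 15.1% passed in this comparison and 7.97% passed as lower. ARNT and EGLN2 did not pass. Among the dim genes EGLN3 was listed on the VHL-null arrays alone. The comparison asks what VHL status does to the transcripts of its own pathway.

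HIF1A was at 367 and 667 in VHL-null replicates at 0 h, then 442 at 1 h, 365 at 2 h, 592 at 4 h, 414 at 6 h, 323 and 516 at 18 h, and 519 and 495 after 1 and 4 h of reoxygenation. In VHL-restored cells it was at 885 and 1504 at 0 h, then 1297 at 1 h, 813 at 2 h, 1372 at 4 h, 765 at 6 h, 653 and 1358 at 18 h, and 1142 and 1327 after 1 and 4 h of reoxygenation. The VHL-null value was the lower in all 10 pairs, and within a set the genotypes did not overlap. The share of all genes separated in this way was not computed, here or for the pair counts of the other genes below. Set 1 held 323 to 414 in VHL-null and 653 to 885 in VHL-restored cells, and set 2 held 442 to 667 in VHL-null and 1142 to 1504 in VHL-restored cells. The log2 difference, VHL-null minus VHL-restored with state as a covariate, was -1.26 (SE 0.078, limma adjusted p = 2.60e-08). It was -1.04 within set 1 (adjusted p = 2.41e-05, with 14.7% of genes passing) and -1.41 within set 2 (adjusted p = 2.55e-07, with 45.7% passing). The pairwise differences ran from -1.61 to -0.88.

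CITED2 was at 232 and 338 in VHL-null replicates at 0 h, then 283 at 1 h, 238 at 2 h, 265 at 4 h, 261 at 6 h, 226 and 338 at 18 h, and 176 and 123 after 1 and 4 h of reoxygenation. In VHL-restored cells it was at 368 and 537 at 0 h, then 617 at 1 h, 397 at 2 h, 691 at 4 h, 371 at 6 h, 481 and 652 at 18 h, and 446 and 153 after 1 and 4 h of reoxygenation. All 10 VHL-null values were below their partners, and the intensities came closest after 4 h of reoxygenation. The log2 difference was -0.90 (SE 0.092, limma adjusted p = 5.80e-06), with -0.70 within set 1 and -1.04 within set 2.

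**Figure D1:**
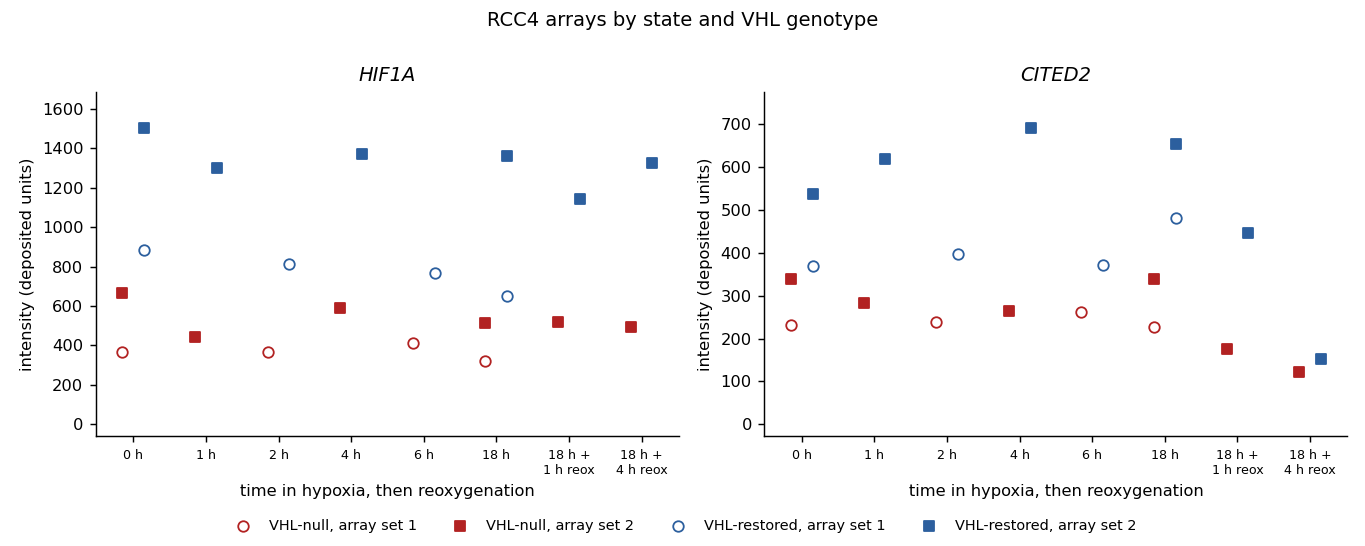
Deposited intensity of HIF1A (left) and CITED2 (right) on each of the 20 RCC4 arrays by state; each point is 1 array, red for VHL-null and blue for VHL-restored, open circles for array set 1 and filled squares for set 2. The red point lies below the blue point of its set at every state for both genes, and CITED2 is lowest after 4 h of reoxygenation in both genotypes, at 123 and 153.

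ARNT, the partner subunit of HIF1A and of the dioxin receptor, was at 280 to 523 in VHL-null cells and 367 to 523 in VHL-restored cells. The ranges overlapped, but the VHL-null array was the lower in 10 of 10 pairs after centring, by differences of -0.56 to -0.0033, and in 8 of 10 by intensity. The log2 difference was -0.19 (SE 0.081, limma adjusted p = 0.159), or adjusted p = 0.0194 with the array set as a block, a fit in which 34.2% of all tested genes passed. EGLN2, a prolyl hydroxylase whose transcript is known to respond to oestrogen more than to hypoxia, was at 398 to 622 in VHL-null cells and 394 to 562 in VHL-restored cells. Its log2 difference was -0.11 (SE 0.069, limma adjusted p = 0.394). Its VHL-null and VHL-restored ranges overlapped too. Within set 2 alone, where 45.7% of tested genes passed, ARNT (adjusted p = 0.0348) and EGLN2 (adjusted p = 0.0468) were both lower in VHL-null cells, by 0.16 and 0.17.

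EGLN3, the prolyl hydroxylase whose gene is among the strongest known HIF targets, was at 48 and 242 in VHL-null cells at 0 h, 347 at 1 h, 37 at 2 h, 334 at 4 h, 74 at 6 h, 132 and 393 at 18 h, and 363 and 402 after 1 and 4 h of reoxygenation. It was null on all 10 VHL-restored arrays, so no fold is given. In the fit without the filter, in which 10.9% of 12690 genes passed, the limma adjusted p was 3.10e-06, and EGLN3 was higher in 10 of 10 pairs. Set 1 values of VHL-null cells were 37 to 132 and set 2 values 242 to 402, so the level of EGLN3 followed the set as well as the genotype. At 18 h against 0 h the VHL-null replicates gave 132 against 48 and 393 against 242, higher in both, with a log2 change of 0.97 (SE 0.484, limma adjusted p = 1.000 without the filter, with 0% of genes passing and 124 at an unadjusted p under 0.05).

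HIF1AN was higher in VHL-null cells in 10 of 10 pairs. It was at 86 to 274 there, with a median of 181, and at 67 to 186 in VHL-restored cells, with a median of 128. The log2 difference was 0.38 (SE 0.094) with a limma adjusted p of 0.0178 over all genes, and 0.00042 with the array set as a block, where 22.8% of genes passed. At 0 h the set 1 values were 97 in the VHL-null and 96 in the VHL-restored array, so the difference was not of one size across pairs, which ran from 0.067 to 0.62.

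The VHL transcript gave no check of the labels. It was at 20 and 109 in VHL-null cells at 0 h and at 26 and 40 in VHL-restored cells, and over all states at 14 to 109 in VHL-null cells, against 1 to 40 where listed in VHL-restored cells, with 2 null. The VHL-null array was higher in 9 of 10 pairs (log2 difference 1.16, SE 0.244, limma adjusted p = 0.00651 without the filter), the direction opposite to the labels if the probe set reads the restored gene. Where the probe set lies in the gene is not given in the sources used here, so whether it reads the reintroduced copy was not tested. All directions between these genotypes therefore rest on the arrays' labels. ARNT2, a beta subunit known chiefly from brain, was at 14 to 117 in VHL-null cells, against 5 to 49 where listed in VHL-restored cells, with 2 null (log2 difference 1.07, SE 0.290, adjusted p = 0.0284 without the filter). The set 1 pairs of ARNT2 had a median difference of 0.013 and the set 2 pairs one of 1.68. Those of VHL had 0.56 and 1.66. In every set 2 pair the VHL-null array had fewer null entries and a higher gene median than its partner. Its null share was 18.4% at 0 h, the lowest of the 30 arrays, against 30.1%, and 34.7% against 35.3% at 1 h. In set 1 the sign varied between pairs. Whether this bears on the gaps of the dim genes EGLN3, HIF1AN, ARNT2 and VHL was not tested. EGLN1, the main prolyl hydroxylase for HIF1A in oxygenated cells, was listed on 2 of 10 VHL-null arrays, at 7 and 23, and on 6 of 10 VHL-restored arrays, at 14 to 55 (adjusted p = 0.0709 without the filter).

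**Figure D2:**
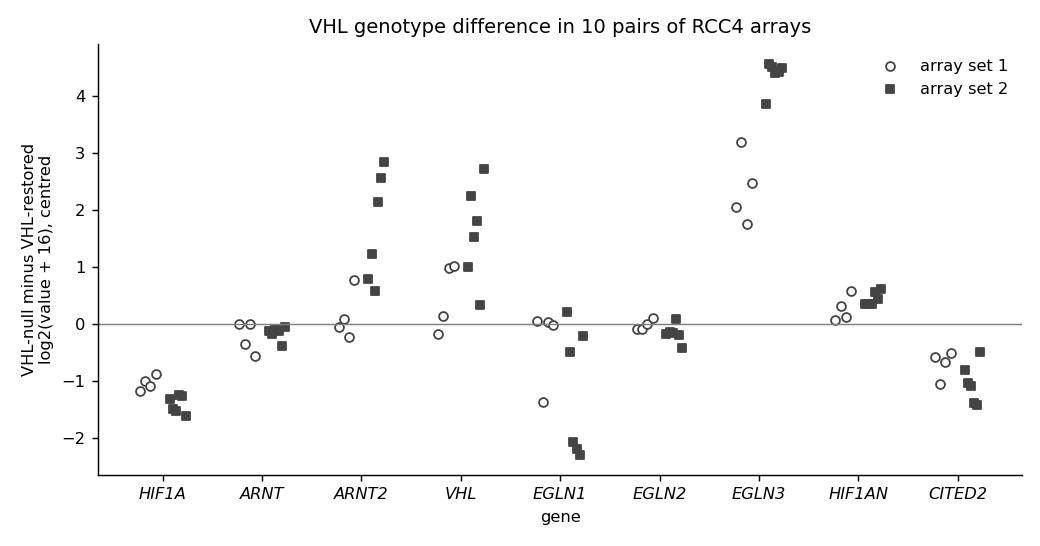
Difference between the VHL-null and the VHL-restored array of the same state and replicate, in log2(value + 16) after centring, for the 9 genes; each point is 1 of 10 pairs, open circles for array set 1 and filled squares for set 2. HIF1A, CITED2 and ARNT lie below 0 in all 10 pairs, ARNT in part only just, and EGLN3 and HIF1AN above 0 in all 10, while ARNT2, VHL and EGLN3 sit higher in set 2.

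**Figure D3:**
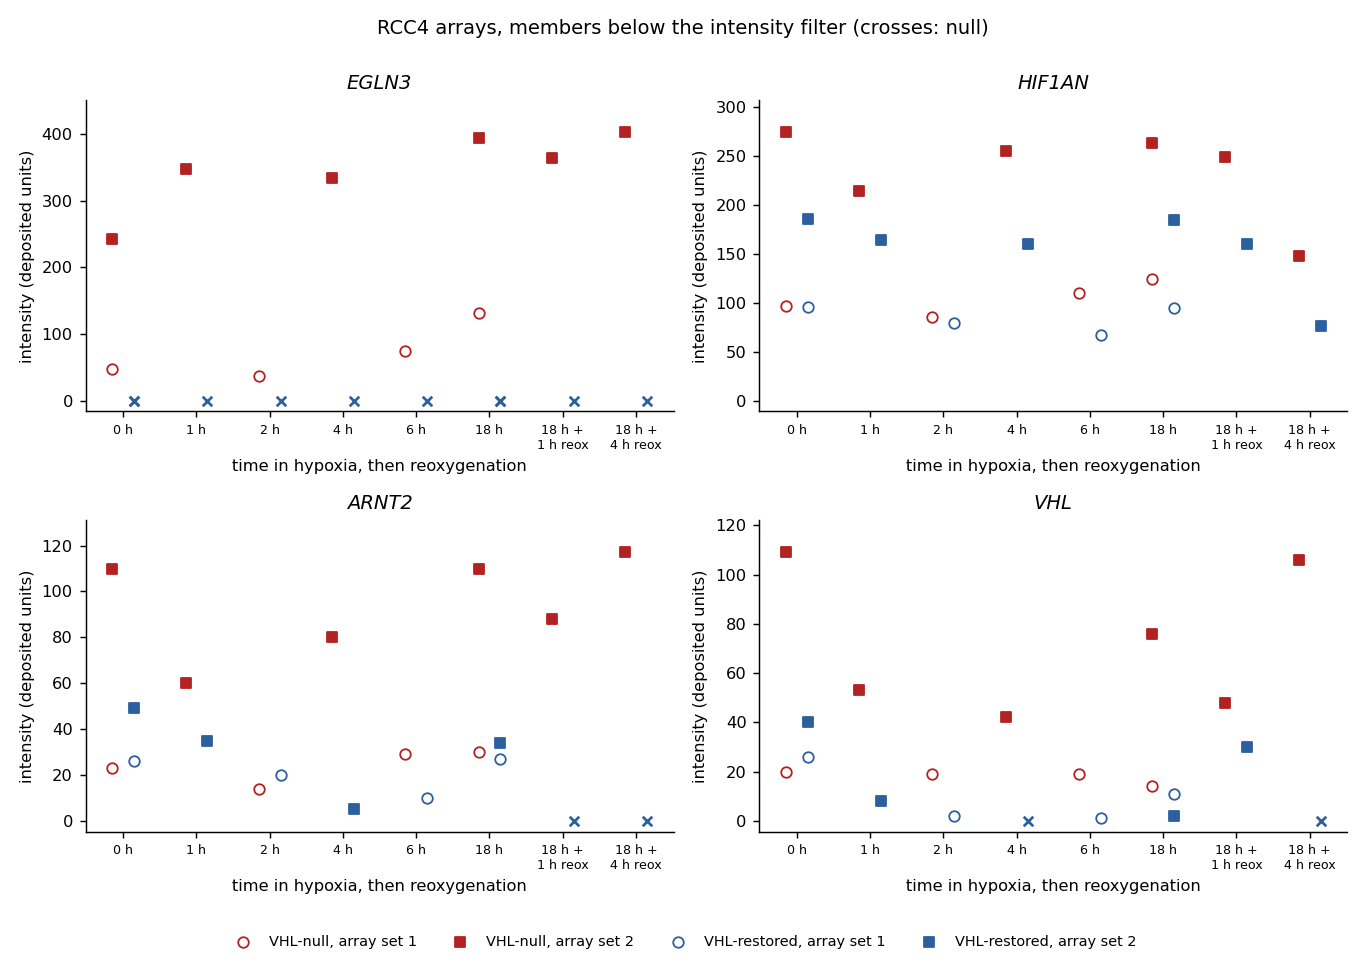
Deposited intensity of EGLN3, HIF1AN, ARNT2 and VHL on the 20 RCC4 arrays by state, with red for VHL-null, blue for VHL-restored, open circles for array set 1, filled squares for set 2 and crosses for null entries. EGLN3 has values on the 10 VHL-null arrays and crosses on the 10 VHL-restored arrays.

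Stretches of 250 bases before the RefSeq start of 4 genes are shown because HIF1A, CITED2 and EGLN3 separated the VHL genotypes and EGLN2 did not pass. HIF binds the core ACGTG or GCGTG, and both were searched on both strands and set in capitals. On GRCh38.p14 they are HIF1A at chr14:61695263-61695512 on the plus strand, CITED2 at chr6:139374649-139374898 on the minus strand, EGLN3 at chr14:33951075-33951324 on the minus strand and EGLN2 at chr19:40798941-40799190 on the plus strand, each upstream of the first exon and read 5′ to 3′ on the gene's strand.
HIF1A: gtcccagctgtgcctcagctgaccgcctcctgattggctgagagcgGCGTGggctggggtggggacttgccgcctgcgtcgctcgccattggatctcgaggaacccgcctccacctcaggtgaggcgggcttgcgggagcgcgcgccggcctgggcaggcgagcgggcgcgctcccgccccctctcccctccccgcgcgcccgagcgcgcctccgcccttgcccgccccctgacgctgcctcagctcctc
CITED2: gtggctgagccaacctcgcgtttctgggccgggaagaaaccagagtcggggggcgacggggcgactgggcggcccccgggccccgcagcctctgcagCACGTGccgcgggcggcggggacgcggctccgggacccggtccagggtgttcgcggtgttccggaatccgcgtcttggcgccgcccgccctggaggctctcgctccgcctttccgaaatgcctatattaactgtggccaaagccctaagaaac
EGLN3: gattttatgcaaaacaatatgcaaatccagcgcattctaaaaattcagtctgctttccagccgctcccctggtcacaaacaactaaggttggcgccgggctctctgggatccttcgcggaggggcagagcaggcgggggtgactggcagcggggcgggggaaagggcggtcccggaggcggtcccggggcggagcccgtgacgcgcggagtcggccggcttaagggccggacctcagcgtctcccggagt
EGLN2: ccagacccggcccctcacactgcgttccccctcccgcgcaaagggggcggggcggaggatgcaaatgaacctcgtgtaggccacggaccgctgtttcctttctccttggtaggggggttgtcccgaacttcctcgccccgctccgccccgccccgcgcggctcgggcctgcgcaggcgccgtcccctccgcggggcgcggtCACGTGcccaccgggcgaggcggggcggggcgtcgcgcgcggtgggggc
The HIF1A stretch held 1 GCGTG, 204 bases before the start. CITED2 held CACGTG, which reads as ACGTG on both strands, at 152 and 153 bases before the start. EGLN2 held the same palindrome at 48 and 49 bases, and the EGLN3 stretch held neither core. Of 35116 such windows in RefSeq, 18.5% held ACGTG, 32.2% held GCGTG and 43.2% held either, so a match describes the window and is no evidence of a site.

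Taking the replicated times alone, HIF1A was lower by 1.25 on the log2 scale in VHL-null cells at 0 h and by 1.24 at 18 h. Neither passed in the unblocked fit of 8 arrays (limma adjusted p = 0.139 and 0.296), and both passed with the replicate number, which equals the array set there, as a block (adjusted p = 1.86e-06 and 3.42e-06). CITED2 at 0 h differed by -0.69 (adjusted p = 0.361, or 2.16e-04 with the block and 0.0594 with the block but without the filter, where 0.646% of genes passed), and at 18 h by -1.04 (adjusted p = 0.206, or 3.85e-06 with the block). Without the block 0.118% of all tested genes passed at 0 h and 0.0263% at 18 h, and with it 7.51% and 7.59%.

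Across the RCC4 time course CITED2 was the 1 of 4 tested genes that differed between states. Its VHL-null arrays lay at 226 to 338 and its VHL-restored arrays at 368 to 691 through 18 h of hypoxia, and both genotypes were lower after 4 h of reoxygenation. The F test over 8 states gave limma adjusted p = 0.00336 for CITED2, with 7.51% of all tested genes passing, and adjusted p = 0.489 for HIF1A, 0.795 for ARNT and 0.848 for EGLN2.

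After 4 h of reoxygenation CITED2 was at 123 in VHL-null cells, against 226 and 338 at 18 h of hypoxia, and at 153 in VHL-restored cells, against 481 and 652. The reoxygenated array lay below both 18 h arrays in each genotype. The VHL-restored array of this state stood apart, with 40.3% null entries, the highest of the 30 arrays, and a gene median of 7.56 on the log2 scale, where the other set 2 arrays had 7.74 to 8.05. CITED2 fell by 1.48 on the log2 scale relative to 18 h (SE 0.178, 2.78-fold, limma adjusted p = 9.18e-04), in a comparison that 0.801% of all tested genes passed. With the array set as a block the change was -1.43 (adjusted p = 4.80e-04, with 2.63% passing), and without centring it was -1.42 and did not pass (adjusted p = 0.104). Without the VHL-restored 4 h array the change was -1.25 (adjusted p = 0.0319, with 0.236% passing). Set against 0 h, a contrast added after these values were seen, CITED2 was lower by 1.28 (SE 0.178, 2.43-fold, adjusted p = 0.00162), where 3.31% of tested genes passed. This did not pass without the VHL-restored 4 h array (-1.06, adjusted p = 0.0785, with 0.263% passing) or without centring (-1.27, adjusted p = 0.0715).

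With the array set as a block 2 genes passed against 0 h, a fit in which 11% of tested genes did: CITED2, lower by 1.24 (adjusted p = 0.0013), and ARNT, higher by 0.43 (SE 0.118, adjusted p = 0.032, or 0.372 without the block). ARNT was at 523 in VHL-null cells after 4 h of reoxygenation, against 369 and 439 at 0 h, and at 468 in VHL-restored cells, against 385 and 424, above both 0 h arrays in each genotype. After centring, the VHL-null array was at 1.303, against 1.285 in set 1 and 0.777 in set 2 at 0 h. The VHL-restored array was at 1.364, against 1.290 and 0.896. The gaps from the set 1 arrays were thus small after centring. ARNT has 3 probe sets of its own, of which the brightest is followed. With their mean it was not among the tested genes. HIF1AN, in the blocked fit without the filter, was lower than at 0 h by 0.65 (SE 0.115, adjusted p = 0.00701, with 25.2% of genes passing). It did not pass without the block. HIF1AN was not refitted without the VHL-restored 4 h array, the one with the most null entries, for this or for its change from 18 h below. After 1 h of reoxygenation CITED2 was intermediate, at 176 in VHL-null and 446 in VHL-restored cells (change from 18 h -0.66, SE 0.178, adjusted p = 0.583, with 0% of tested genes passing and 633 at an unadjusted p under 0.05).

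Against 18 h of hypoxia HIF1A had a log2 difference of 0.32 after 4 h of reoxygenation (SE 0.151, adjusted p = 0.337), ARNT one of 0.14 (adjusted p = 0.727) and EGLN2 one of -0.11 (adjusted p = 0.739), none past the threshold. HIF1AN, the factor-inhibiting hydroxylase, was at 148 in VHL-null cells after 4 h of reoxygenation, against 124 and 263 at 18 h, and at 76 in VHL-restored cells, against 95 and 185. It lay below the 18 h array of its own set in each genotype, and its change was -0.54 without the filter (adjusted p = 0.180, with 1.99% of genes passing) and -0.75 with the array set as a block (adjusted p = 0.00522, with 17.1% of genes passing). Each reoxygenation time is 1 array per genotype, all in set 2.

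Hypoxia for 18 h called no gene of the family without a block. In VHL-restored cells CITED2 was at 481 and 652 at 18 h, against 368 and 537 at 0 h, higher in both replicates. The change was 0.37 (SE 0.161, limma adjusted p = 1.000, with 0.0394% of tested genes passing), and with the replicate block it passed (SE 0.099, adjusted p = 0.0319, with 6.58% passing), but not with the block and no filter (adjusted p = 0.237, with 0.181% passing). In VHL-null cells CITED2 was at 226 and 338 at 18 h, against 232 and 338 at 0 h, a change of 0.019, and no gene of the array passed (0% called, 51 at an unadjusted p under 0.05, and 0.486% called with the replicate block). The difference between the changes was -0.35 (SE 0.227, adjusted p = 1.000, or 0.645 with the block), so a dependence on VHL was not shown. In that test 0% of genes passed without the block, with 45 at an unadjusted p under 0.05, and 0.565% passed with it.

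HIF1A was at 323 and 516 in VHL-null cells at 18 h, against 367 and 667 at 0 h, and at 653 and 1358 in VHL-restored cells, against 885 and 1504. It was lower at 18 h in all 4 replicates, by 0.23 in VHL-null and by 0.24 in VHL-restored cells on the log2 scale. Neither change passed (adjusted p = 1.000 in both, and 0.626 and 0.310 with the replicate block).

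In the p53 lines none of the 4 tested genes passed at 24 h of hypoxia. In HCT116 cells HIF1A was at 433, 227 and 201 at 0, 12 and 24 h in p53 wild-type cells and at 478, 294 and 253 in p53-null cells. Both hypoxic arrays lay below the 0 h array in each genotype. In H1299 cells it was at 391 at 24 h against 273 at 0 h in p53-reintroduced cells and at 267 against 388 in p53-null cells, so the signs were opposite in the 2 genotypes, with 1 array each. Over both lines 24 h of hypoxia gave a change of -0.48 (SE 0.261, limma adjusted p = 0.654). No gene passed that comparison (0% called, 427 at an unadjusted p under 0.05).

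The HCT116 difference was tested alone after it had been seen. With 12 h and 24 h averaged against 0 h, HIF1A was lower by 0.86 (SE 0.096, 1.81-fold, limma adjusted p = 0.0238), where 1.44% of tested genes passed, and without the filter the same difference of -0.86 did not pass among more genes (adjusted p = 0.109, with 0.205% passing). CITED2 was at 91, 99 and 110 at 0, 12 and 24 h in p53 wild-type HCT116 cells and at 93, 110 and 130 in p53-null cells. In H1299 it was at 128 at 24 h against 119 at 0 h in p53-reintroduced cells and at 114 against 104 in p53-null cells. CITED2 was higher at 24 h in 4 of 4 backgrounds, by 0.22 over both lines (SE 0.073, limma adjusted p = 0.654).

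Over all 6 backgrounds of line and genotype, CITED2 was higher at the late hypoxic time in 6 of 6 and HIF1A lower in 5 of 6. The share of all genes with such direction counts was not computed, here or for the 24 h backgrounds above. For CITED2 the VHL-null RCC4 background counted as higher by 0.019 alone, from 226 and 338 at 18 h against 232 and 338 at 0 h, and its sign turned without centring (-0.018), with null as missing (-0.055) and centred on the tested genes (-0.016). Neither passed: CITED2 had a log2 difference of 0.21 (SE 0.061, limma adjusted p = 0.396) and HIF1A one of -0.40 (SE 0.186, adjusted p = 0.409), in a fit where 0% of genes passed and 925 had an unadjusted p under 0.05. These backgrounds include the RCC4 and 24 h arrays already described. ARNT was at 370 and 455 at 24 h in p53-null HCT116 and H1299 cells, against 570 and 575 at 0 h, and at 392 and 375 in p53 wild-type HCT116 and p53-reintroduced H1299 cells, against 392 and 343. The log2 difference of EGLN2 was at most 0.074 in any background. The p53 genotype called no gene (0% called, 526 at an unadjusted p under 0.05), and HIF1A differed by -0.15 between p53 wild-type and p53-null cells (SE 0.141, limma adjusted p = 0.842).

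**Figure D4:**
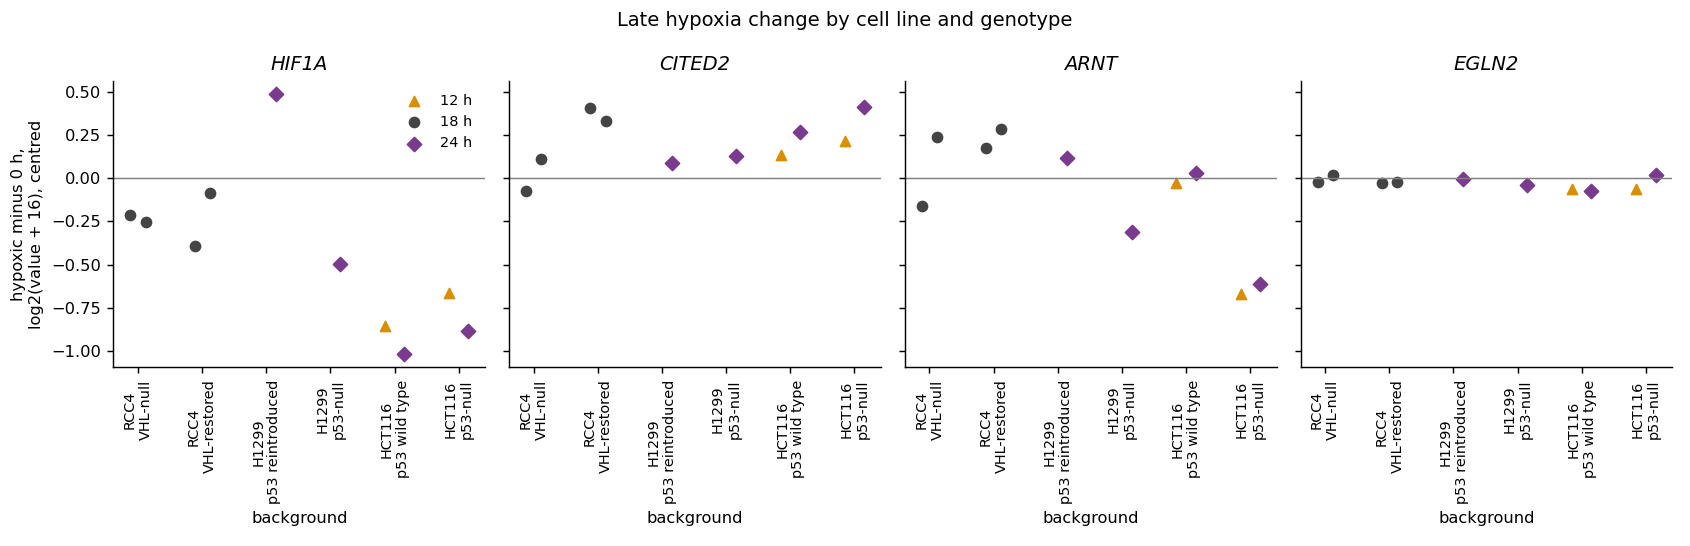
Change in log2(value + 16) after centring, hypoxic minus 0 h array, for HIF1A, CITED2, ARNT and EGLN2 in each of the 6 backgrounds; each point is 1 hypoxic array against its 0 h array at 12 h (triangles), 18 h (circles, 2 replicates) or 24 h (diamonds). HIF1A is below 0 in all but p53-reintroduced H1299 cells, and EGLN2 stays close to 0.

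Between the lines at 0 h, CITED2 and the dim genes HIF1AN, ARNT2 and VHL were higher in RCC4. CITED2 was at 232 to 537 on the 4 RCC4 arrays, against 119 and 104 in H1299 cells (p53 reintroduced, p53 null) and 91 and 93 in HCT116 cells (p53 wild type, p53 null). The RCC4 arrays lay above all arrays of the other lines. The differences were 1.08 from H1299 (SE 0.229, limma adjusted p = 0.0128) and 1.30 from HCT116 (adjusted p = 0.00676). This is a setting in which lines differ widely: 61.2% of all tested genes passed the F test over 3 lines, 55.4% passed between RCC4 and H1299 and 60.3% between RCC4 and HCT116. With RCC4 replicate 1 alone, which is in the same array set as the other lines, the CITED2 differences were 1.14 and 1.35.

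HIF1AN was at 96 to 274 on the 4 RCC4 arrays at 0 h, against 34 and 27 in H1299 and 36 and 30 in HCT116, a log2 difference of 1.37 and 1.27 without the filter (SE 0.125, limma adjusted p = 0.00285 and 0.00231, where 54.8% and 59.1% of genes passed). ARNT2 was listed on 18 of 20 RCC4 arrays and null on all 10 arrays of the other lines. EGLN1 and EGLN3 were null on those 10 arrays as well, and VHL was listed on 2 of them, at 9 and 5, both p53-reintroduced H1299. On the RCC4 arrays at 0 h ARNT2 was at 23 and 26 in set 1, the set of the other lines, and at 110 and 49 in set 2. VHL was at 20 and 26 in set 1 and at 109 and 40 in set 2. The set 1 values are low, and the dim genes were not fitted with RCC4 replicate 1 alone. HIF1A (adjusted p = 0.339) and ARNT (adjusted p = 0.138) did not pass the F test over lines, which does not show that the lines are alike. EGLN2 was lower in RCC4 than in H1299 by 0.29 (SE 0.085, adjusted p = 0.0352), a difference that was 0.17 in the other direction without centring. It passed under 3 of 9 alternatives, with adjusted p of 0.0273 to 0.519 over the 9.

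**Figure D5:**
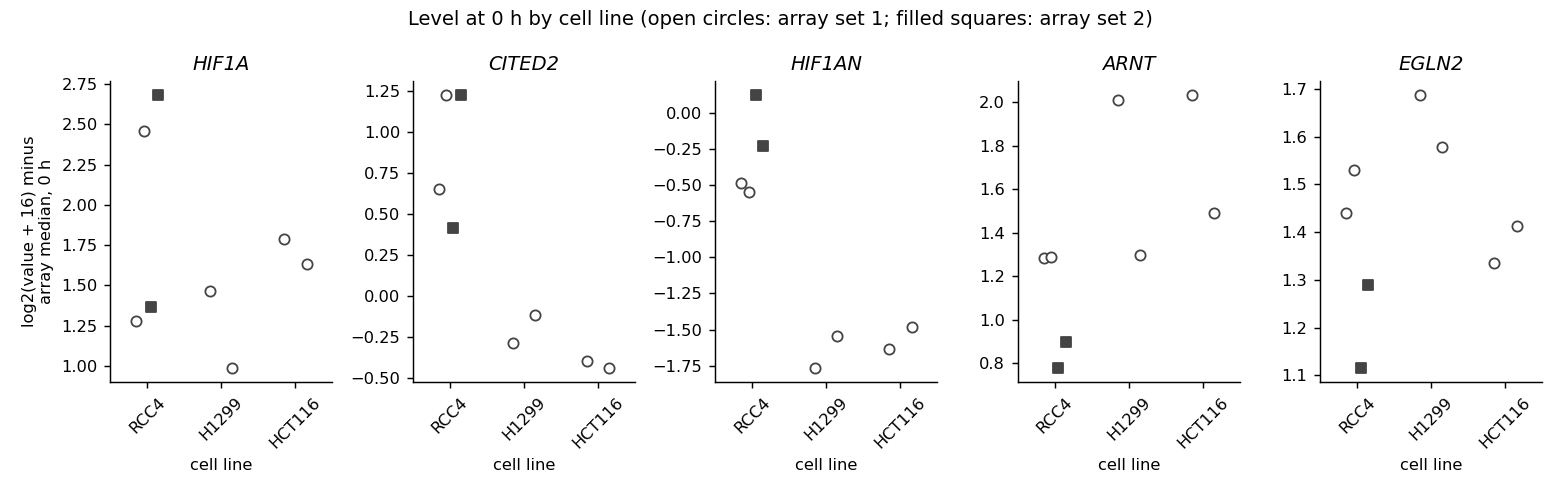
Level at 0 h, as log2(value + 16) minus the array median, for HIF1A, CITED2, HIF1AN, ARNT and EGLN2 in RCC4, H1299 and HCT116 cells; each point is 1 array, open circles for array set 1 and filled squares for set 2, and each panel has its own scale. CITED2 and HIF1AN are higher in all 4 RCC4 arrays. HIF1A in RCC4 splits by genotype, with the VHL-null arrays inside the range of the other lines and the VHL-restored arrays above it.

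How many of the wider pathway's genes passed by VHL genotype depended on the array set being in the fit. The 78 listed partners, modifiers and relatives of HIF included 35 tested genes, of which 2 passed by VHL genotype without it, 2 higher and 0 lower (5.71%, against 15.1% of all tested genes). P4HA1, a collagen prolyl hydroxylase subunit and known HIF target, was higher in VHL-null cells by 0.49 (SE 0.081, limma adjusted p = 5.60e-04), and ELOC, which joins VHL to its ligase, by 0.21 (SE 0.066, adjusted p = 0.0471). With the array set as a block 13 passed, 5 higher and 8 lower (37.1%, against 34.2% of all). They included OS9, a protein reported to bind HIF1A and its hydroxylases, at -0.27, STAT3, a signal-activated transcription factor, at 0.24, IDH3A, a citric acid cycle enzyme, at 0.22, and CLOCK, a relative of ARNT in the circadian clock, at 0.20. The median log2 difference of the list was -0.025, beside -0.051 over all tested genes.

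At 18 h in VHL-restored cells 0 of the 35 passed without the block, and 5 did with it, 3 higher and 2 lower (14.3%, against 6.58% of all). P4HA1 rose by 0.71, EIF4EBP1, a brake on cap-dependent translation, by 0.48 and RELA, an NF-kappaB subunit, by 0.41, while HSP90AA1, the chaperone that holds HIF1A, fell by 0.61 and IDH1, which makes the hydroxylases' co-substrate 2-oxoglutarate, fell by 0.58. None of the 35 passed after 4 h of reoxygenation relative to 18 h, where 0.801% of all tested genes passed. None passed at 18 h in VHL-null cells, at 24 h in H1299 and HCT116, by p53 genotype or over the 6 backgrounds, where 0% of all did. These counts do not set the lists apart from other genes. Over the 8 RCC4 states 1 of the 35 passed, P4HA1 (2.86%, against 7.51% of all, limma F test adjusted p = 0.00377). Between lines at 0 h 19 of 35 passed (54.3%, against 61.2% of all). Between RCC4 and H1299 15 of the 35 passed (42.9%, against 55.4% of all), and between RCC4 and HCT116 20 did (57.1%, against 60.3%). In RCC4 P4HTM, a membrane-bound prolyl hydroxylase, was higher than in H1299 by 1.42 and IDH2, the mitochondrial isocitrate dehydrogenase, by 0.97. ELOC was lower than in H1299 at -0.79 and HIF3A, which encodes another alpha subunit, at -0.75. Relative to HCT116, SENP1, a SUMO protease, was lower in RCC4, with a log2 difference of -1.59 (SE 0.531, limma adjusted p = 0.0477). HIF3A was lower too, at -0.82 (SE 0.077). USP33, a deubiquitinase, was higher by 1.56 (SE 0.351), CLOCK by 1.18 (SE 0.279) and BMAL2, a relative of ARNT, by 1.00 (SE 0.091). The SEs of SENP1, USP33 and CLOCK were thus the largest of these.

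The genes whose levels ran most like each tested gene were named by Pearson correlation over the 20 RCC4 arrays after the set means were subtracted, as a description: the arrays share genotype and state, and no p is given. For HIF1A they were CCND2 (r = 0.983) and ABCB1 (r = 0.972). CITED2 was most like ADNP2 (r = 0.933) and TRIM62 (r = 0.914), ARNT most like RAB2B (r = 0.870) and ZBTB40 (r = 0.824), and EGLN2 most like INPP5E (r = 0.906) and PPP1R11 (r = 0.894). Among the tested members HIF1A and CITED2 had r = 0.681, and ARNT and CITED2 r = 0.118.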

How the data were processed

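Cells of 30 samples were measured with 1 Affymetrix array each, biotin-labelled and stained with streptavidin-phycoerythrin per the labels' protocols. The deposited intensity values are whole numbers with null entries; the authors' signal algorithm and scaling are not given in the sources used here. Of 35409 probe sets, 16905 carried 1 gene symbol in the platform annotation, 573 several and 17931 none. Null was taken as 0, 16 was added, log2 was taken and each array was centred on its median over 12690 genes, 1 probe set per gene (the brightest). The upper 60% of genes by mean (7614) were fitted with limma 3.58.1 in R 4.3.3 (lmFit, eBayes), with two-sided tests and Benjamini-Hochberg adjustment over all of them at 0.05. Checks on simulated data were also run, and their outcome is not given here. RCC4 comparisons used genotype and state terms over 20 arrays, or group means of the 8 replicated arrays; the p53 lines used line and genotype or line and time as blocks. Where no replicate arrays exist, states, lines or backgrounds stand in for replicates, and the number of arrays limits the precision.

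In the replicated RCC4 groups replicate 1 was always in array set 1 and replicate 2 in set 2, and same-numbered samples deviated together (r = 0.794 to 0.916 over 6 pairs of groups), so the numbers were taken as pairs and the blocked value is given where it changes a call. No 2 arrays held identical values. The 10 genes, the pathway lists and the markers were chosen with earlier results of these data known. All members are named; of the pathway lists, up to 6 genes that passed are named per comparison by size of change. Alternatives were other pseudocounts, null as missing, no centring or quantile normalization, no filter, the mean of a gene's probe sets, the array set, and leaving out arrays, the 4 h reoxygenation arrays among them after values were seen. The contrasts were added after values were seen: CITED2 at 4 h of reoxygenation against 0 h, 1 h of reoxygenation against 18 h, and HIF1A in HCT116. Gene positions and promoters come from RefSeq on GRCh38.p14; 8 of the 10 genes matched a promoter entry. The EPAS1 probe set, shared with another gene, and the p53 gene were not used here.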

Additional observations from a re-analysis of the deposited data

Results flagged for a closer look

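The prolyl hydroxylase EGLN1 differed between 18 h of hypoxia and 0 h in opposite directions in the 2 RCC4 genotypes, with a mean log2 difference of -0.344 in VHL-null and of 0.726 in VHL-restored cells. Its entries were low or null: in VHL-null cells null at both times in replicate 1, and 7 at 18 h against 23 at 0 h in replicate 2, and in VHL-restored cells 25 at 18 h against null at 0 h in replicate 1, and 14 at both times in replicate 2. The signs of the pairs with equal entries come from the centring of the arrays alone. The difference between the genotypes was -1.07 (limma without the filter on low values) and did not pass, with an adjusted p of 1.000 without and 0.997 with the replicate block.

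CITED2 differed by p53 genotype in opposite directions in the 2 lines. In H1299 it was higher in p53-reintroduced than in p53-null cells at both times, by 0.154 on average on the log2 scale, and in HCT116 p53 wild-type cells were below p53-null cells at all 3 times, with a mean difference of -0.124. The difference between the lines was not tested, and each value comes from single arrays.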

How the results depend on the processing

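Counts of called members kept within 1.5 times the reported count under 138 of 151 alternatives. Many of these set 0 against 0 in comparisons where 0% of all tested genes passed, so they say little about stability. Leaving out either 4 h reoxygenation array or both gave the same genotype fit, so these are not separate checks of it. Of the 405 recomputed single values, 373 kept their direction and side of the threshold, 12 passed the threshold anew, 9 lost it and 11 turned sign. In what follows a percentage is the share of all genes that passed in the same fit. For counts without a percentage this share is not given here, so they say nothing particular about these genes. By VHL genotype 2 members were called (15.1%), against 6 without the filter (10.9%) and 4 within array set 2 (45.7%). Without the filter and with the array set as a block 7 were called (22.8%). By state 1 was called (7.51%), against 0 without centring and 2 with the mean of probe sets or without the filter with the set block. After 4 h of reoxygenation 1 was called (0.801%), against 0 without centring and 2 without the filter with the set block (17.1%). At 18 h in VHL-restored cells 0 were called (0.0394%), and 1 with the replicate block (6.58%). Between lines 1 was called (61.2%), against 2 with a pseudocount of 1 or without centring, 3 with the mean of probe sets and 4 without the filter. Apart from the calls given with the results, the replicate block changed no other call.

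HIF1A and CITED2 by VHL genotype over 20 arrays kept their call under all 20 alternatives, at -1.41 to -1.04 and -1.04 to -0.70. Without single states or 4 h reoxygenation arrays they ranged over -1.30 to -1.22 and -0.95 to -0.85, and CITED2 at 4 h of reoxygenation over -1.70 to -1.25 against 18 h and -1.51 to -1.06 against 0 h, where it did not pass without the VHL-restored array. The 18 h change of CITED2 in VHL-null cells turned to -0.055 with null as missing, -0.018 without centring and -0.016 centred on the tested genes, and ran from -0.098 to 0.14 without single replicates. The 18 h change of HIF1A in VHL-restored cells ran from -0.51 to 0.027 and its VHL dependence from -0.26 to 0.28 without single replicates. EGLN2 in RCC4 against H1299 turned to 0.17 without centring. The cause of these shifts was not tested. Dim genes near or below the filter are limited by null entries of unknown meaning, and single arrays at most states limit every contrast outside 0 h and 18 h.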
